A study of Ovis aries with 15 samples.

Results

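BLG, LALBA and GLYCAM1 are 3 genes that encode whey proteins of sheep milk, and they were taken by name from the 24691 features of the table, in which each symbol had 1 row. β-lactoglobulin, the product of BLG, is the major whey protein of ruminant milk and belongs to the lipocalins, small barrel-shaped carriers of hydrophobic molecules. α-lactalbumin, the product of LALBA, descends from the c-type lysozymes and is the regulatory subunit of lactose synthase, in which it turns the galactosyltransferase B4GALT1 towards glucose. GLYCAM1 encodes a mucin-like glycoprotein that is secreted into milk and is also known as an adhesion molecule of lymph node vessels. All are made in ruminants by the luminal secretory cells of the mammary gland, which also make the caseins, the proteins of the milk micelle (CSN1S1, CSN2, CSN1S2 and CSN3).

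The libraries were made from mammary parenchyma of Romney ewes in their first pregnancy and lactation, taken by needle biopsy on day 135 of gestation (SD 2.4) or day 15 after lambing (SD 1.27). RNA of several ewes was pooled for each library, with 9 libraries in late pregnancy and 6 in lactation. The labels give 3 ewes to a late pregnancy pool and 2 to a lactation pool, while the methods give 3 to every pool. The ewes are known by the feed their own dams received from day 21 to day 50 of gestation, ad libitum (HM), maintenance (MM) or sub-maintenance (LM), before all these dams were fed at maintenance to day 140. Each of these 3 groups has 3 late pregnancy pools and 2 lactation pools, and the ewes themselves were all managed alike. Ewes were biopsied in pregnancy and again in lactation, and the labels do not tie a pool of one state to a pool of the other.

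All these genes lie on chromosome 3 in the deposited coordinates, for which the submitters' processing notes name the assembly Oar_v3.1 and the study's methods a later version of the sheep genome. BLG spans 3570808 to 3602046 with 6 exons, GLYCAM1 spans 131817893 to 131820796 with 4 exons, and LALBA spans 137390655 to 137392683 with 4 exons. GLYCAM1 and LALBA are 5.57 Mb apart, and BLG is 128 Mb from GLYCAM1. No other feature of the table overlapped any of these spans, and in all 45 pairs of gene and library every exon read was uniquely placed. The table's BLG span of 31239 bp contrasts with the 4690 bp of the same gene in a newer RefSeq assembly (ARS-UI_Ramb), which lists BLG as a synonym of PAEP, whereas the spans of LALBA (2029 against 2031 bp) and GLYCAM1 (2904 against 2888 bp) were close. The exon model was 481 bp for BLG, 723 bp for LALBA and 638 bp for GLYCAM1, and this length enters the RPKM, which scales exon reads to a kilobase of exon and to the reads on genes of the library. Of these genes the study assayed LALBA by RT-qPCR, and its primers are shown because they fix which stretch of the LALBA transcript was amplified there:
LALBA forward primer: aaagacgaccagaaccctca
LALBA reverse primer: tcttggcacacacaatgtca

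Per kilobase of exon, BLG was the most abundant feature of the table in late pregnancy, holding the highest RPKM in each of the 9 libraries. That scale divides by the deposited exon model, which is 481 bp for BLG. By mean share of exon reads, CSN2 (5.64%) and CSN1S1 (4.34%) stood above BLG (3.67%) in late pregnancy. The BLG RPKM in late pregnancy ranged from 54255 to 75375 with a median of 66511. In lactation the BLG RPKM ranged from 52513 to 66715 with a median of 61188, so the states overlapped. BLG then stood in place 5 in 5 libraries and place 6 in the library of MM pool 2, below the caseins. The mean BLG RPKM was 65030 ± 7401 (SD, n = 9) in late pregnancy and 60540 ± 4569 (SD, n = 6) in lactation.

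LALBA was at a much lower level in late pregnancy. Before lambing its RPKM ranged from 2930 to 6761 (median 4287), and in lactation it ranged from 44048 to 64086 (median 58895), without overlap. The mean LALBA RPKM was 4496 ± 1405 (SD, n = 9) and 56138 ± 8276 (SD, n = 6), respectively. Of these genes LALBA had the widest relative spread between late pregnancy libraries, with a coefficient of variation of 31.3%, against 11.4% for BLG and 13.1% for GLYCAM1. The highest LALBA values came from MM pool 2 and HM pool 1, and the lowest from LM pools 3 and 2.

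GLYCAM1 RPKM ranged from 3153 to 4612 (median 4050) before lambing and from 8233 to 10916 (median 9465) in the lactation libraries, again without overlap. The mean was 3876 ± 507 (SD, n = 9) and 9601 ± 947 (SD, n = 6). On the RPKM scale the order in late pregnancy was therefore BLG, then LALBA and GLYCAM1, whose ranges overlapped. In lactation the ranges of BLG and LALBA overlapped and GLYCAM1 was below both. Within single lactation libraries the RPKM of LALBA was 0.796 to 1.03 times that of BLG, whereas in late pregnancy it was 0.0437 to 0.111 times that of BLG.

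**Figure D1:**
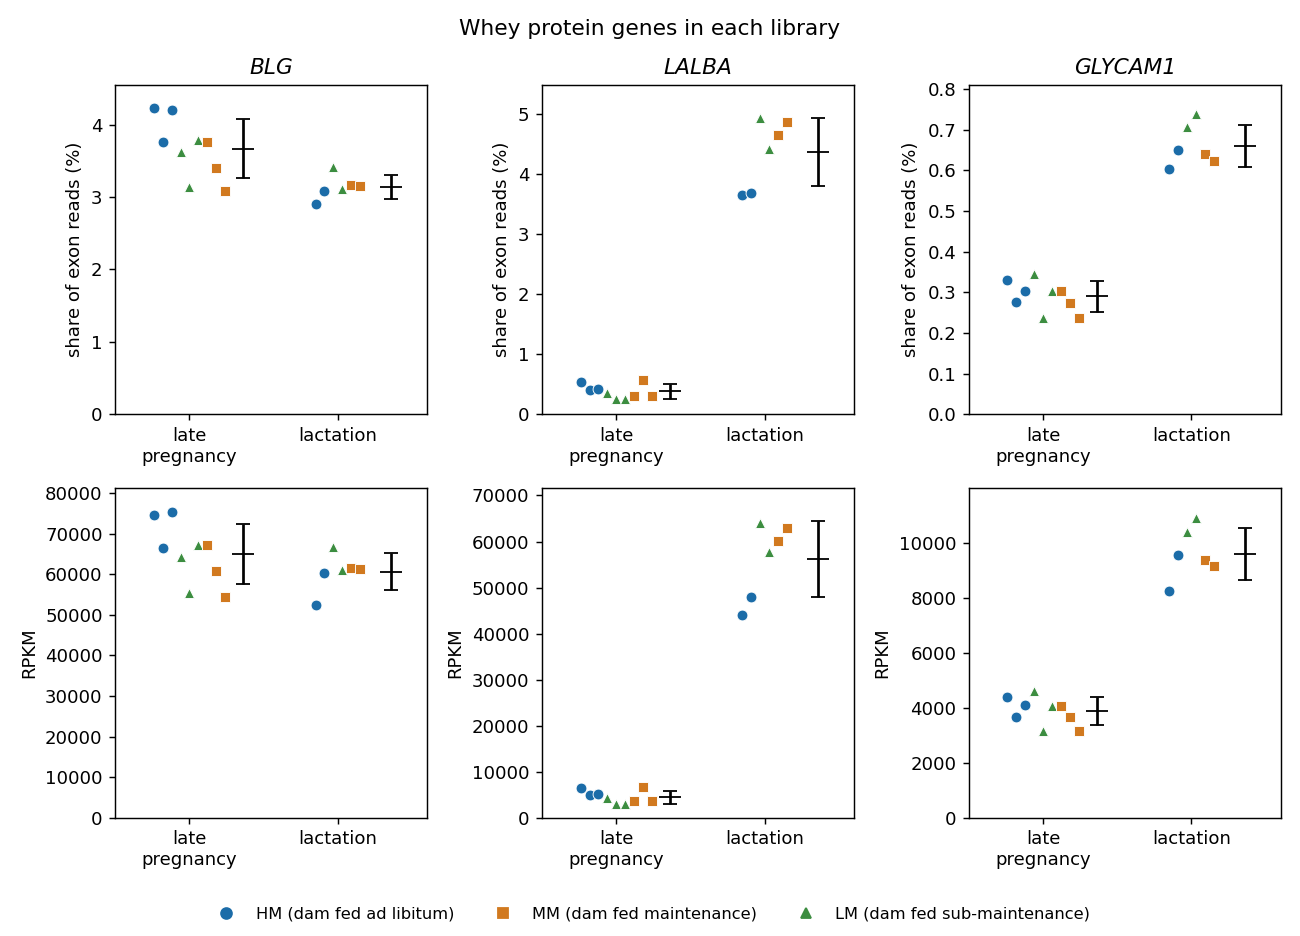
Share of exon reads (upper row, percent) and RPKM (lower row) of BLG, LALBA and GLYCAM1 in each library, with colour and shape for the dam group and bars for the mean and SD of 9 late pregnancy and 6 lactation libraries. The states overlap for BLG on both scales and are apart for LALBA and GLYCAM1.

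The share of all exon reads needs no scaling between libraries, although it depends on what the other genes take. Late pregnancy libraries held 6471237 to 16898986 exon reads, lactation libraries held 9014506 to 24001031, and the rarest of these readouts, GLYCAM1 in HM pool 2 of late pregnancy, still rested on 17834 reads. BLG took 3.08% to 4.22% of the exon reads before lambing (median 3.76%) and 2.90% to 3.42% in the lactation libraries (median 3.13%). The difference of the BLG means was -0.53 percentage points (exact permutation test over 5005 splits, two-sided, p = 0.0124). It was -0.95 points (exact permutation p = 0.0004) with uniquely placed exon reads in numerator and denominator. That denominator also lacks the whole-gene reads that stand in for features without an annotated transcript. The BLG difference shrank to -0.22 points (p = 0.21 by the same exact test) when all reads on genes were the denominator. It turned to 5.10 points higher in lactation (exact permutation p = 0.0004) when the caseins were left out of the denominator. The size and direction of the BLG difference thus depend on the denominator.

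LALBA took 0.248% to 0.571% of the exon reads before lambing (median 0.364%) and 3.66% to 4.94% in the lactation libraries (median 4.54%). The mean LALBA share was 3.99 percentage points higher in lactation, with the exact permutation test at p = 0.0004, the smallest that these libraries allow. GLYCAM1 took 0.238% to 0.345% before lambing (median 0.303%) and 0.603% to 0.739% in the lactation libraries (median 0.645%), a difference of 0.37 points at the same smallest exact p. The states did not overlap for either gene. Together the 3 whey genes took 4.34% ± 0.49 (SD, n = 9) of exon reads in late pregnancy and 8.17% ± 0.74 (SD, n = 6) in lactation, while the 4 caseins went from 13.3% ± 2.7 to 66.3% ± 1.5.

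Within that whey total the makeup differed. BLG made up 84.6% ± 2.2 of the reads of the 3 genes in late pregnancy (range 80.2% to 87.3%) and 38.6% ± 2.0 in lactation (36.5% to 41.6%). LALBA made up 8.72% ± 2.29 (5.73% to 13.4%) and 53.3% ± 2.5 (49.7% to 56.3%), so that in all 6 lactation libraries it had more exon reads than BLG. GLYCAM1 made up 6.69% ± 0.56 (6.15% to 7.97%) and 8.11% ± 0.69 (7.21% to 8.92%), with overlapping ranges.

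The comparison of lactation with late pregnancy, the study's main question, was then fitted across 13345 features with the TMM scaling of edgeR, which sets the libraries level on the bulk of the genes, and CPM are the reads of a gene relative to its library size on that scale. On that scale all 3 genes were higher in lactation, BLG with the reverse sign under library size alone and quantile normalization. Of all 13345 tested features, 33.1% were called higher and 68.4% were called in either direction, and 4703 were called lower. A call alone therefore sets no gene apart. BLG CPM was 17174 to 27097 before lambing (median 22128), and 57429 to 78811 was the range of the lactation libraries (median 71057). The BLG log2 change was 1.68 ± 0.11 (SE, adjusted p = 2.8e-11, edgeR quasi-likelihood test), but it was -0.22 (adjusted p = 0.0076) with library size alone and -2.09 (adjusted p = 1.6e-16) in the authors' quantile-normalized RPKM tested with limma. LALBA CPM was 1378 to 3500 (median 2220) and 72409 to 113795 (median 98822). The LALBA log2 change of 5.42 ± 0.21 (SE, adjusted p = 1.4e-14, edgeR) corresponds to 42.8-fold, and only 40 of the 13345 features rose more.

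GLYCAM1 CPM was 1297 to 2120 (median 1754) and 11943 to 16799 (median 14717). Its log2 change was 3.09 ± 0.11 (SE, adjusted p = 6.9e-15, edgeR), or 8.51-fold. No library of one state reached the range of the other for any of these genes on the TMM scale, as was the case for 40.2% of tested features. In the same fit the caseins had log2 changes of 3.29 ± 0.14 (CSN3), 4.03 ± 0.15 (CSN2), 4.24 ± 0.17 (CSN1S1) and 6.88 ± 0.44 (CSN1S2), so that BLG and GLYCAM1 had smaller changes than every casein and LALBA a larger change than all but CSN1S2.

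Scaling set the direction of BLG and the size of all changes. The TMM factors were 1.56 to 1.83 in late pregnancy and 0.432 to 0.505 in lactation. Relative to a median log2 change of all features of -0.03 under TMM, that median was -1.93 with library size alone, -0.24 with library size after leaving out the 7 milk protein genes, -0.18 with upper quartile scaling and -0.28 when scaled to the summed reads of luminal epithelial markers. Under these scalings the changes of LALBA were 3.52, 5.21, 5.27 and 5.15, and those of GLYCAM1 were 1.19, 2.88, 2.94 and 2.85. BLG was higher in lactation in 6 of the 8 scalings and LALBA and GLYCAM1 in all 8. These scalings are not independent, since TMM, DESeq2 size factors in edgeR and DESeq2 each gave BLG a log2 change of 1.68. The share of calls that were higher in lactation was 48.4% under TMM and 2.70% with library size alone. It was 31.9% without the 7 milk protein genes, 36.3% with upper quartile scaling and 28.1% when scaled to luminal markers. The log2 change of BLG less that median was 1.71 with TMM and 1.71 with library size alone. These scalings shift all features of a library alike, so the match follows from the method and tells nothing about BLG. In quantile-normalized RPKM the same difference was -2.04.

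The quantile-normalized values of BLG were the same number, 123211, in every late pregnancy library. Quantile normalization gives each rank the same value in all libraries, and BLG held the first rank in all of them. In lactation it received 29487 in 5 libraries and 26467 in the library where it stood in place 6. The LALBA value fell on 7070 in the 4 late pregnancy libraries where LALBA stood in place 7 (HM pools 1, 2 and 3 and MM pool 2), and between 2001 and 2736 in the other 5. The quantile-normalized RPKM of these genes is therefore a record of rank, and its log2 changes were 2.81 for LALBA and 1.20 for GLYCAM1.

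**Figure D2:**
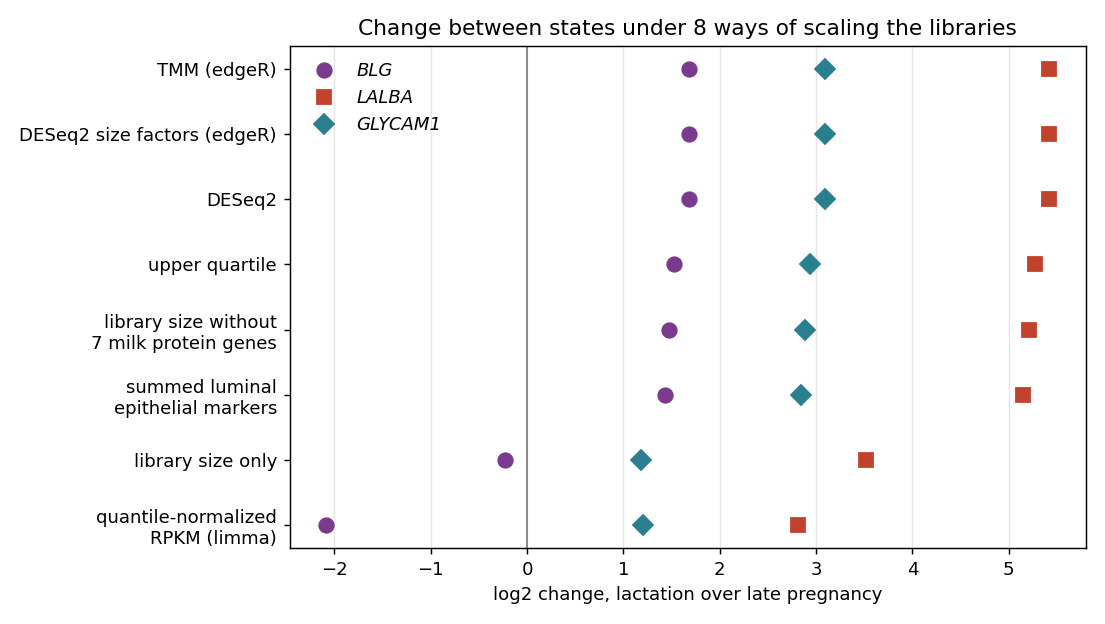
Fitted log2 change of BLG, LALBA and GLYCAM1, lactation over late pregnancy, under 8 ways of scaling the 15 libraries. LALBA and GLYCAM1 are to the right of 0 throughout, while BLG falls to -0.22 with library size only and to -2.09 in quantile-normalized RPKM.

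Ratios between genes of the same library do not depend on the scaling, and they showed that these genes did not change alike. There were 0.0656 to 0.167 LALBA exon reads for each BLG exon read before lambing (median 0.101) and 1.20 to 1.54 in the lactation libraries (median 1.43). The mean log2 ratio of LALBA to BLG rose by 3.79, or 13.8-fold. GLYCAM1 reads per BLG read went from 0.0722 to 0.0952 (median 0.0782) to between 0.198 and 0.237 (median 0.207), a change of the mean log2 ratio of 1.41. LALBA reads per GLYCAM1 read went from between 0.820 and 2.09 (median 1.30) to between 5.68 and 7.81 (median 6.51), a change of 2.38. The states did not overlap in any of these 3 ratios, and the exact permutation test gave each its smallest value (p = 0.0004, adjusted over the 3 ratios p = 0.0004).

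**Figure D3:**
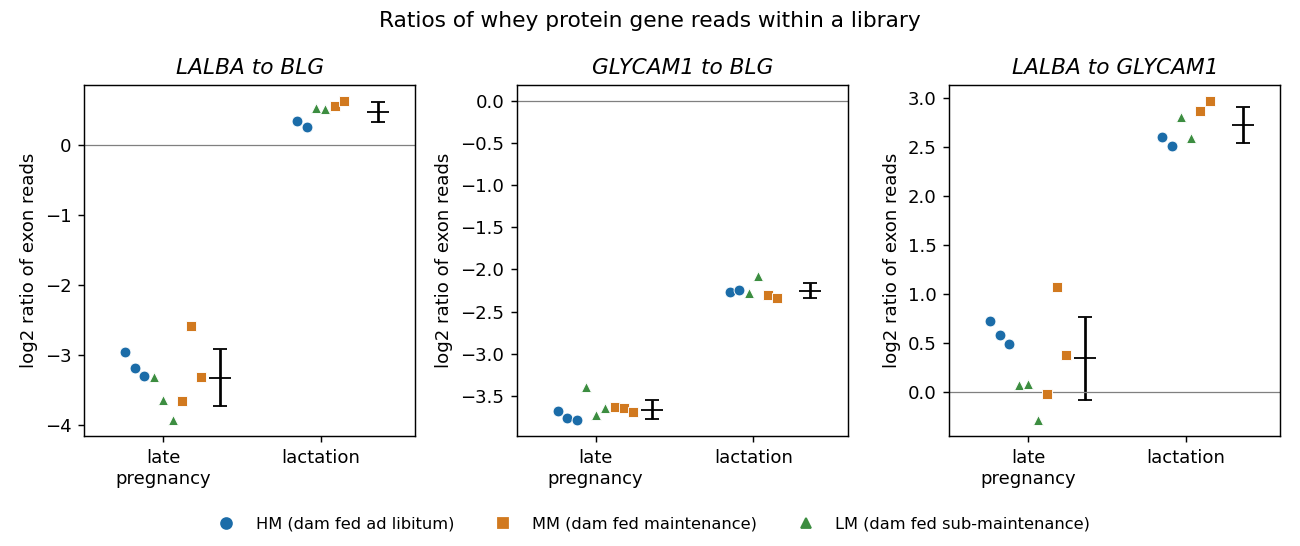
Log2 ratio of exon reads between each pair of whey protein genes within a library, by state, with colour and shape for the dam group and bars for the mean and SD. LALBA to BLG lies below 0 in all 9 late pregnancy libraries and above 0 in all 6 lactation libraries.

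Against the summed exon reads of the 4 caseins the genes went in opposite directions. BLG reads per casein read fell from between 0.231 and 0.311 in late pregnancy to between 0.0451 and 0.0518 in lactation, a log2 change of -2.56. GLYCAM1 fell from between 0.0180 and 0.0262 to between 0.00928 and 0.0110, a log2 change of -1.15. LALBA rose from between 0.0203 and 0.0471 to between 0.0539 and 0.0747, a log2 change of 1.23. Each exact permutation p was 0.0004, and 0.0004 after adjustment over the 3 ratios, with no overlap of the states. The 3 whey genes together went from 24.8% ± 1.6 (SD, n = 9) of the reads of the 7 milk protein genes to 11.0% ± 0.9 (SD, n = 6).

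Intron reads, which are what remains of a gene's reads after its exon reads are taken off, gave a second readout. LALBA had 531 to 1523 intron reads per late pregnancy library and 1723 to 5188 per lactation library. GLYCAM1 had 621 to 2583 and 1378 to 3116, and BLG, whose deposited span is the longest, had 21310 to 68661 and 18965 to 61734. BLG intron reads depend on its deposited exon model of 481 bp in a span of 31239 bp. Whether reads from BLG exons outside that model are counted among them was not tested. In an edgeR fit of intron reads with their own TMM scaling, where 29.0% of 10344 features were called higher in lactation, the log2 change was 3.18 ± 0.15 (SE) for LALBA, 2.00 ± 0.15 for GLYCAM1 and 1.29 ± 0.15 for BLG. The adjusted p of that edgeR fit was 1.5e-14, 3.6e-11 and 1.6e-07, respectively. All 3 remained higher in lactation with the summed intron reads of each library as its size and no TMM factor (2.60, 1.40 and 0.71). That size leaves out exon reads, so it is not the library size under which BLG exon reads were lower. No intron fit on the exon library size alone was run.

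The exon reads of LALBA changed more than its intron reads. There were 2.15 intron reads per 100 exon reads of LALBA in late pregnancy and 0.475 in lactation, a change of -2.17 in the mean log2 ratio (exact permutation p = 0.0004, adjusted over the 3 genes p = 0.0006). For GLYCAM1 the figures were 4.17 and 2.12, a change of -0.96 (exact permutation p = 0.0004, adjusted p = 0.0006). For BLG they were 9.52 and 7.64, a change of -0.32 with overlapping states (exact permutation p = 0.0044, adjusted p = 0.0044). Over 9801 features in both fits on shared scaling factors the median of this difference was 0.05, with 0.224% of features below LALBA, 2.34% below GLYCAM1 and 19.6% below BLG.

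Reads that cross an exon and intron border went the same way, and made up 1.07% to 1.83% of LALBA gene reads before lambing and 0.289% to 0.426% in the lactation libraries. For GLYCAM1 they made up 1.53% to 2.74% and 0.850% to 1.31%, and for BLG 0.762% to 0.925% and 0.575% to 0.669%. Of the exon reads, those that join exons made up 93.6% to 94.6% in late pregnancy and 94.2% to 95.1% in lactation for BLG, and 55.0% to 59.5% and 58.7% to 61.3% for LALBA. For GLYCAM1 they made up 66.6% to 69.0% and 69.1% to 72.0%, without overlap.

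**Figure D4:**
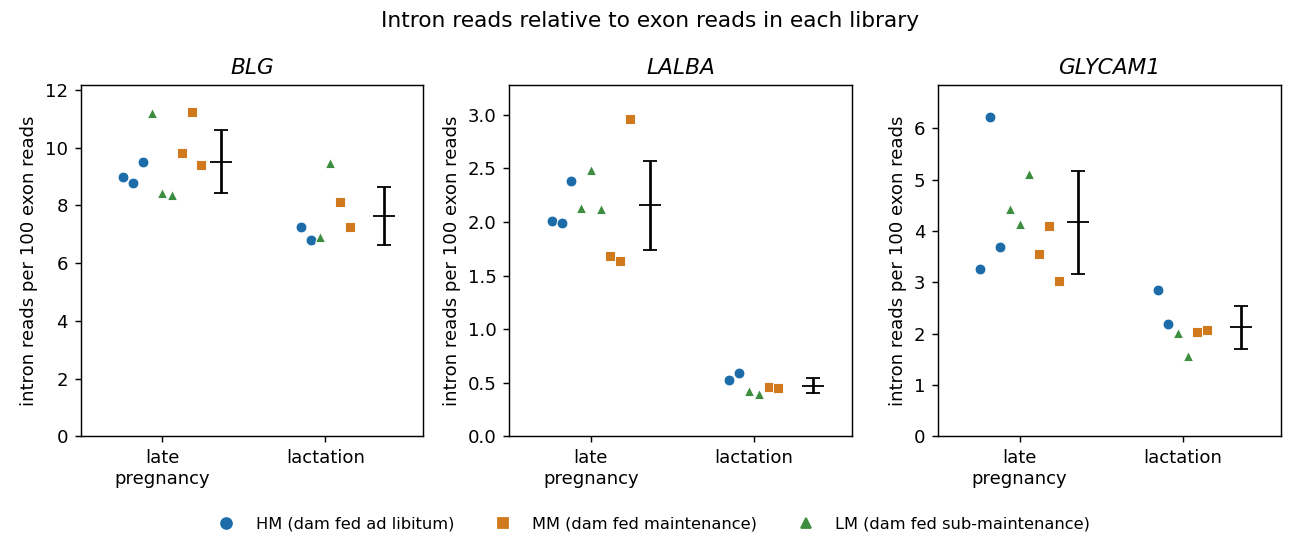
Intron reads per 100 exon reads of BLG, LALBA and GLYCAM1 in each library, by state, with colour and shape for the dam group and bars for the mean and SD. LALBA averages 2.15 in late pregnancy and 0.475 in lactation, and the BLG states overlap.

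Across pools of the same state, BLG and GLYCAM1 varied together in late pregnancy. Over the 9 late pregnancy libraries Pearson's r of their log2 CPM was 0.89 (exact permutation p = 0.0021, adjusted over 6 relations p = 0.0129) and Spearman's rho was 0.85 (exact permutation p = 0.0061, adjusted p = 0.036). Without the 2 libraries farthest from the median BLG value r was 0.72. LALBA was less closely tied to BLG (r = 0.58, rho = 0.63) and to GLYCAM1 (r = 0.51, rho = 0.57) in late pregnancy, with exact permutation p-values of r adjusted to 0.15 and 0.16 and of rho to 0.15 and 0.18. Without 2 libraries these r fell to 0.28 and 0.09.

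In the 6 lactation libraries r was 0.86 for BLG with LALBA, 0.87 for BLG with GLYCAM1 and 0.69 for LALBA with GLYCAM1, and rho was 0.83, 0.60 and 0.60. Their exact permutation p-values of r, adjusted over the 6 relations, were 0.05, 0.05 and 0.155, and those of rho were 0.15, 0.24 and 0.24, so none was under 0.05. Without the 2 farthest libraries r of log2 CPM dropped to 0.28, 0.54 and 0.31, so that on this scale the relations rest on those libraries. The CPM of a library shares its scaling factor between genes, and on the share of exon reads the late pregnancy relation of BLG and GLYCAM1 was r = 0.79 (exact permutation, adjusted p = 0.035), which dropped to 0.39 without 2 libraries. On that share the lactation relation of BLG and LALBA was r = 0.79 (exact permutation, adjusted p = 0.025) and rho = 0.94 (exact permutation, adjusted p = 0.093), and r was 0.92 without 2 libraries.

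Over all 15 libraries, after removing the mean of each state, the features whose log2 CPM was most like that of BLG among 7072 with a mean of at least 10 CPM were CSN1S1 (r = 0.91), GLYCAM1 (0.89), CSN2 (0.88), CSN3 (0.87) and DQX1 (0.87). Those most like GLYCAM1 were HDLBP, YIPF3, BLG, FASTK and RNF167, with r from 0.90 to 0.87. LALBA had another company, namely LOC101121506 (r = 0.88), CIDEA (0.87), which encodes a lipid droplet protein, ZNF330 (0.85), TIMM8B (0.79) and DPAGT1 (0.78). For LALBA, CSN2 stood in place 19, CSN1S2 in place 61, BLG in place 96, CSN1S1 in place 153, CSN3 in place 205 and GLYCAM1 in place 269. These are descriptions over libraries that share a scaling factor within each library.

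Dam nutrition was compared within late pregnancy, where 3 pools stand in each group. BLG CPM was 22195 to 27097 in HM, 17174 to 22197 in MM and 17181 to 22128 in LM pools, so that HM overlapped MM by a narrow margin and lay above LM. LALBA CPM was 2437 to 3500 in HM, 1726 to 3227 in MM and 1378 to 2220 in LM pools, with every HM pool above every LM pool. GLYCAM1 CPM was 1628 to 2120 in HM, 1326 to 1785 in MM and 1297 to 2108 in LM pools, which overlapped. None was called by the edgeR F-test (adjusted p = 0.9997 for each, unadjusted p = 0.037 for BLG, 0.028 for LALBA and 0.27 for GLYCAM1). It called 0 of 13747 features, a share of 0%, with 571 at an unadjusted p under 0.05, and no other tool was run.

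The lane in the column name moved with these groups, since 2 of 3 HM pools and no LM pool are named for lane 7. Mean LALBA CPM in late pregnancy was 2732 in the 4 lane 7 libraries and 1894 in the 5 lane 8 libraries, and with lane as a covariate its unadjusted p in edgeR was 0.14, with that of BLG at 0.045. The labels state that each library was run over both lanes.

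In lactation, with 2 pools a group, HM pools had the lowest mean CPM and LM pools the highest for all 3 genes. By share of exon reads the mean of LALBA was 4.76% in MM and 4.68% in LM pools. The lactation HM pools are all named for lane 7 and the LM pools for lane 8. Dam group and named lane therefore cannot be told apart between them, and the test by dam group given below had no lane covariate. Mean LALBA CPM was 78842 in HM, 104838 in MM and 107223 in LM pools, against 2881, 2239 and 1679 in late pregnancy. Mean BLG CPM was 64362, 69489 and 74814 in lactation, against 25323, 19547 and 20406. Mean GLYCAM1 CPM was 13474, 13894 and 16537, against 1891, 1550 and 1720. The edgeR test of whether the change between states differed by dam group called 0 of 13345 features (0%), with 876 at an unadjusted p under 0.05, and no other tool was run. Its adjusted p was 0.74 for LALBA (unadjusted 0.016), 0.77 for BLG (0.075) and 0.85 for GLYCAM1 (0.25). The change between states was also fitted within the libraries named for each lane, under TMM scaling only. Log2 changes in those named for lanes 7 and 8 were 1.51 and 1.82 for BLG, 4.95 and 5.85 for LALBA, and 2.92 and 3.24 for GLYCAM1.

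Around LALBA, the 5 tested features beyond the end of the gene were called higher in lactation under TMM, 3 of them with the reverse sign under library size alone. LOC101121506 begins 8755 bp beyond LALBA, carries no annotated transcript in the table and is a pseudogene in the newer RefSeq annotation. It went from 105 to 477 reads in late pregnancy to between 435 and 1421 in lactation, a log2 change of 3.79 ± 0.26 (SE, adjusted p = 9.0e-11, edgeR). The next features in order, LOC101121764, LOC101103226, ZNF641 and LOC101105997, had log2 changes of 2.96, 1.55, 1.03 and 0.66, the last 3 being the ones that reverse. Per 100 LALBA exon reads LOC101121506 had 0.284 to 0.628 reads before lambing and 0.127 to 0.233 in the lactation libraries, without overlap. It is counted over the whole feature, and the table does not give the strand of reads.

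Of the 10 tested neighbours of LALBA (5 on either side), 9 were called higher and 1 lower under TMM, against 33.1% called higher of all features, and 7 of the 9 were lower with library size alone. LOC101121506 and LOC101121764 were higher in all 8 scalings. CACNB3, a calcium channel subunit before the start of the gene, fell by 1.19 on the log2 scale. Of the 10 neighbours of BLG, 5 were called higher and 1 lower, with log2 changes from -0.28 to 1.09, and all 5 were lower with library size alone. Of the 10 neighbours of GLYCAM1, 1 was called higher (FGD6, 1.05, lower with library size alone) and 6 lower, among them the phosphatase inhibitor PPP1R1A (-2.05) next to it. Called lower among all 13345 tested features were 4703.

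**Figure D5:**
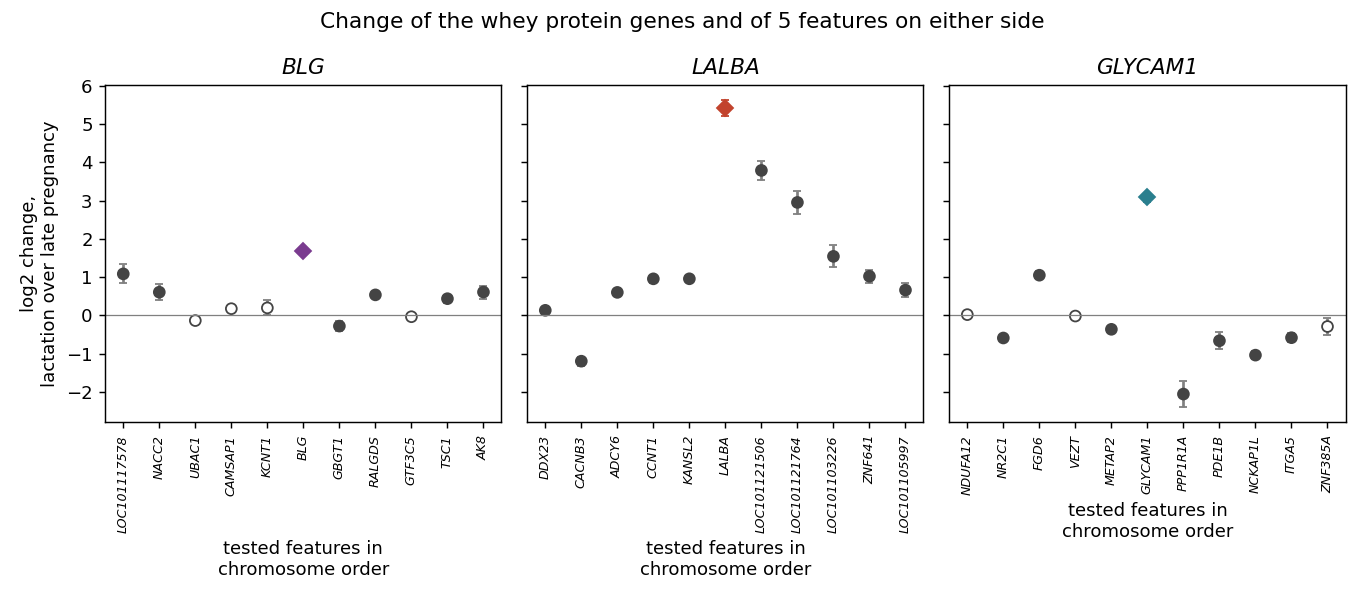
Log2 change, lactation over late pregnancy under TMM scaling, of each whey protein gene (coloured diamond) and of the 5 tested features on either side in chromosome order, with bars for the SE and filled circles for an adjusted p under 0.05. The features to the right of LALBA go from 3.79 to 0.66, and BLG, shown at 1.68, is below 0 with library size alone. Places on the axis give order and not distance.

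Genes related to the whey proteins moved in both directions. Of 4 tested lipocalin genes, LCN2, an iron-siderophore carrier, rose (log2 change 3.52 ± 0.15, higher in all 8 scalings) and RBP4 (-1.07), APOD (-0.88) and APOM (-0.52) fell, with a list median of -0.70 against -0.03 over all features. LCN9 had at most 1 read in any library. Of the 6 c-type lysozyme genes only LYZ passed the filter, and it fell by 0.73 on the log2 scale (adjusted p = 0.0136, edgeR), while LYZL1, LYZL4 and SPACA3 had no read and LYZL6 and SPACA5 at most 3. Of 5 tested genes for membrane mucins and sialomucins, MUC15 (3.42) and MUC1 (3.37) rose in all 8 scalings and 3 fell, with CD34 (-1.01) and MUC20 (-0.92) in front.

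Of the 4 genes given here for the partners of LALBA in lactose synthesis, 3 were called higher in lactation under TMM, although 2 of those were lower with library size alone. B4GALT1, the catalytic subunit, had 227 ± 26 CPM (SD, n = 9) in late pregnancy and 1032 ± 87 (SD, n = 6) in lactation, a log2 change of 2.19 ± 0.08 (SE), and was higher in all 8 scalings. SLC35A2, the UDP-galactose carrier of the Golgi, changed by 1.71 and UGP2, which makes UDP-glucose, by 1.70, both with the reverse sign under library size alone. PGM1, which supplies glucose 1-phosphate, was at -0.09 (adjusted p = 0.35, edgeR).

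Of 17 tested features for other secreted milk proteins, 12 were called higher and 1 lower under TMM, with a median of 1.86 against -0.03 over all features, and 4 of the 12 were lower with library size alone. LPO, the milk peroxidase (9.13 ± 0.51 SE), and SPP1 on chromosome 6, which encodes osteopontin (7.38 ± 0.39), rose most, in all 8 scalings, and LYZ was the gene that fell. Of 18 tested genes known to regulate milk protein genes, 11 were called higher and 4 lower under TMM (median 0.46), all 11 of them lower with library size alone. The largest rises were those of the cytokine signalling inhibitors CISH (1.74) and SOCS3 (1.40 ± 0.29 SE), the latter with at most 26 reads in any library. The largest falls were TFAP2C (-1.26) and GATA3 (-0.59), and the prolactin effector STAT5A, named after its value was seen, was at -0.35. Of 12 tested genes for entry into the endoplasmic reticulum and disulfide formation, 10 were called higher and 1 lower (median 0.68), with 9 of the 10 lower under library size alone. ERO1L, an oxidase for disulfide formation (2.51), rose in all 8 scalings, the chaperone HSPA5 was at 1.19, and ERO1LB was the gene that fell (-0.65).

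The biopsies are bulk tissue, in which fewer cells of a type and less RNA per cell cannot be told apart. Of 6 luminal epithelial markers, 3 were called higher and 1 lower under TMM, none of them at 0, with a summed level of 973 to 1423 CPM in late pregnancy and 1325 to 1572 CPM in lactation, and the 3 were lower with library size alone. Scaled to those markers the log2 changes were 1.43 for BLG, 5.15 for LALBA and 2.85 for GLYCAM1. Markers of other cells moved with the states as well, where 4703 of all 13345 tested features were called lower. Called lower were 3 of 4 fibroblast markers (353 to 626 CPM summed in late pregnancy, 225 to 371 in lactation), 3 of 3 endothelial (140 to 191, 85.8 to 124), 4 of 5 macrophage (117 to 150, 57.4 to 81.5) and 4 of 4 T cell markers (35.5 to 58.1, 11.7 to 17.9). Of 6 myoepithelial markers 3 were called higher, with the reverse sign under library size alone, and 2 lower (553 to 625.2, 524 to 777). None of 4 tested adipocyte markers was called (223 to 428, 303 to 394). Of 3 tested B and plasma cell markers (28.6 to 74.8, 61.1 to 150), 2 were called higher, IGJ (0.91) and MZB1 (2.54), and CD79A was called lower (-1.27). IGJ was lower with library size alone. The neutrophil list rested on MPO alone (0.346 to 1.18, 4.39 to 16.0). No marker was at 0 in all libraries, and the part of these markers in the changes of the whey genes was not tested.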

How the data were processed

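Read counts on exons, unique exons, whole genes, exon junctions and exon and intron borders, RPKM, quantile-normalized RPKM and median coverage (signal) were deposited by the authors as 1 table, made by mapping paired Illumina reads with CLC Genomics Workbench. The counts as deposited are not normalized, and the authors' RPKM divides exon reads by exon length and reads on genes. Its comparison columns hold the authors' fold changes, Baggerly test p-values and false discovery rates, and were not used. Libraries held 7597938 to 25679416 reads on genes, without molecular identifiers.

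Exon reads (whole-gene reads where a feature has no transcript) were tested in edgeR 4.0.16 (R 4.3.3) with filterByExpr, TMM scaling, a quasi-likelihood F-test without covariates and Benjamini-Hochberg adjustment over all tested features. A call is an adjusted p under 0.05. DESeq2 1.42.0 and limma 3.58.1 on log2(quantile-normalized RPKM + 1) were alternatives. Shares, ratios and correlations were tested by exact two-sided permutation (scipy, Python). In counts simulated for the comparison of the states, with 12809 genes tested, edgeR recovered 50 of 50 genes at each of a rise and a fall of 1 and 3 on the log2 scale, with 11 false calls among 12609 unchanged genes. Rises and falls were simulated in equal number and with a common dispersion. The simulation therefore does not test how the scaling handles the casein reads of lactation. P-values measure the spread between pools. Apart from the replicate block, the tests between states took the 15 libraries as independent, although ewes were biopsied in both states. The members, lists, tests and named genes were chosen with earlier results of these data known. Genes named are the whey genes, all tested genes of the casein, lactose synthesis, lipocalin and lysozyme lists, up to 2 largest rises and falls among called genes of other lists, 5 tested neighbours on either side and the 5 features most correlated with each whey gene. Values within named lanes, scaling to luminal markers, named lane as a covariate and the ratio of intron to exon reads were added after the data were seen. The alternatives tried were other scalings, filters, read classes and denominators, dam group as a covariate, a block and leaving out each library. Some listed genes are not reported here.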

Additional observations from a re-analysis of the deposited data

Results flagged for a closer look

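Of 36 groups of values of the whey protein genes tested for a library far from its group, 3 had one, where chance gives about 1 in 20. The log2 ratio of GLYCAM1 to BLG was highest in LM pool 1 in late pregnancy, at -3.39, with a gap of 0.611 of the group's range. In lactation it was highest in LM pool 2, at -2.08, with a gap of 0.656 of the range. The log2 ratio of LALBA to the caseins in late pregnancy was highest in MM pool 2, at -4.41, with a gap of 0.512 of the range.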

How the results depend on the processing

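LALBA and GLYCAM1 kept their direction and call under all 15 alternatives of the fit between states (LALBA log2 change 2.81 to 5.85, GLYCAM1 1.19 to 3.24) and when each library was left out. BLG kept them under 13 of 15 alternatives and reversed under library size only (-0.22) and in quantile-normalized RPKM with limma (-2.09), and its values without each library in turn were 1.64 to 1.73. The lower BLG share of exon reads (-0.53 points) was -0.95 points with uniquely placed exon reads, which also lack the whole-gene reads of features without a transcript. It was -0.22 points and no longer under 0.05 with all reads on genes as denominator, and reversed to 5.10 points without the 4 caseins. The cause was not tested beyond what the denominators themselves change. In lactation the correlation of BLG and LALBA was 0.79 and passed the threshold (exact permutation, adjusted p = 0.025) on the share of exon reads. All 6 read ratios, the intron changes and the dam nutrition results stayed on their side of the threshold under every alternative run and without each library left out where that was run. Called features numbered 6914 (within the libraries named for lane 7) to 13058 (library size only).

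Pool numbers did not pair the libraries: the correlation of deviations from the state means between pools of the same dam group and number was -0.012 to 0.12, and 1 of 6 lactation libraries correlated best with its own number. With the replicate block the log2 changes were 1.69 for BLG, 5.38 for LALBA and 3.08 for GLYCAM1, with 8464 features called.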
